A study of Mus musculus with 6 samples.

Results

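The genes described here belong to the sphingosine 1-phosphate (S1P) axis and to T cell egress. They are the receptor genes S1pr1, S1pr4 and S1pr5, the kinase gene Sphk1, the exporter gene Mfsd2b, the lyase gene Sgpl1, the transcription factor gene Klf2 and the selectin ligand gene Selplg. They were chosen by gene symbol, 8 of the 54532 genes in the count table, and all 8 had enough reads to enter the test. The set was selected on the measured difference between these 2 groups, in which Mfsd2b was already known to be among the clearest rises, so for all 8 the values below are a description and no p-value is given. The ruxolitinib group is 3 libraries (pools 1, 2 and 3) from female CByB6F1 hybrid mice, 2 to 5 months old, with bone marrow failure driven by T cells, given ruxolitinib, which inhibits the kinases JAK1 and JAK2. The control group is 3 libraries (pools 4, 5 and 6) from mice of the same strain, sex, age range and disease, labelled untreated. In both groups marrow cells were selected with CD8 microbeads and the cells of 2 to 3 mice of a group were pooled before RNA extraction. The sources used here give neither dose, nor duration of treatment, nor purity of the selected cells. Values of single libraries are given in the order of the pool numbers. The p-values set the difference between groups against the spread between pools, not between single mice.

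S1P is a lipid signal that is plentiful in blood and lymph and scarce inside tissues. Sphingosine kinases make it, red cells and platelets release it through the exporter Mfsd2b, endothelial cells release it through Spns2, and S1P lyase destroys it. A mature T cell leaves the thymus, lymph nodes or marrow by following this gradient with its receptor S1PR1, whose gene is switched on by the transcription factor KLF2, while the activation protein CD69 pulls the receptor from the surface.

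The libraries held 13829808 to 14139605 counts in the ruxolitinib group and 15740514 to 17708196 in the control group, and they differed widely in cell content. Of 17 CD8 T cell identity genes, 16 passed the test as lower (Trbc2 and Thy1 were the most abundant), and their summed level was 1876 to 5386 CPM (the library's counts scaled to a common total) with ruxolitinib and 10604 to 12949 CPM in control. Cd8a had 2454, 2537 and 7692 counts with ruxolitinib, and 19187, 14439 and 13254 in control. All 13 measured erythroid genes were higher (Hba-a1 and Hbb-bs led), with sums of 125343 to 245654 CPM against 1868 to 2693 CPM. Higher genes numbered 10 of 10 for B cells, 11 of 12 for monocytes and macrophages, 7 of 9 for neutrophils, 5 of 7 tested for endothelial cells, 4 of 7 tested for platelets and 6 of 7 for plasmacytoid dendritic cells. Of 4 tested natural killer cell genes 3 were lower. The most abundant genes of these lists were Ighm, Cd79b, Lyz2, C1qa, Ngp, Eng and Spib, which were higher, Klrc1 and Bst2, which were lower, and S100a8, Pecam1, Pf4, Itga2b and Eomes, which did not pass. In such bulk samples fewer cells of a type and less RNA per cell cannot be told apart. Over all 13480 genes tested, 55.2% passed the threshold, an adjusted p under 0.05 in edgeR's quasi-likelihood test.

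Against that background the 8 genes divided. Past the threshold, 4 were higher with ruxolitinib (Mfsd2b, Sphk1, S1pr5 and Sgpl1) and 2 were lower (Selplg and S1pr4), where 29.9% of all tested genes were higher and 25.3% lower. The CPM of the groups did not overlap for 7 of the 8, 4 higher and 3 lower, where 66.0% of all tested genes had such separate groups, 35.7% higher and 30.3% lower. S1pr1 was the gene whose groups overlapped. Their median log2 fold change was 0.75, against 0.03 over all tested genes, and since the rule used this contrast nothing is read from these counts.

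**Figure D1:**
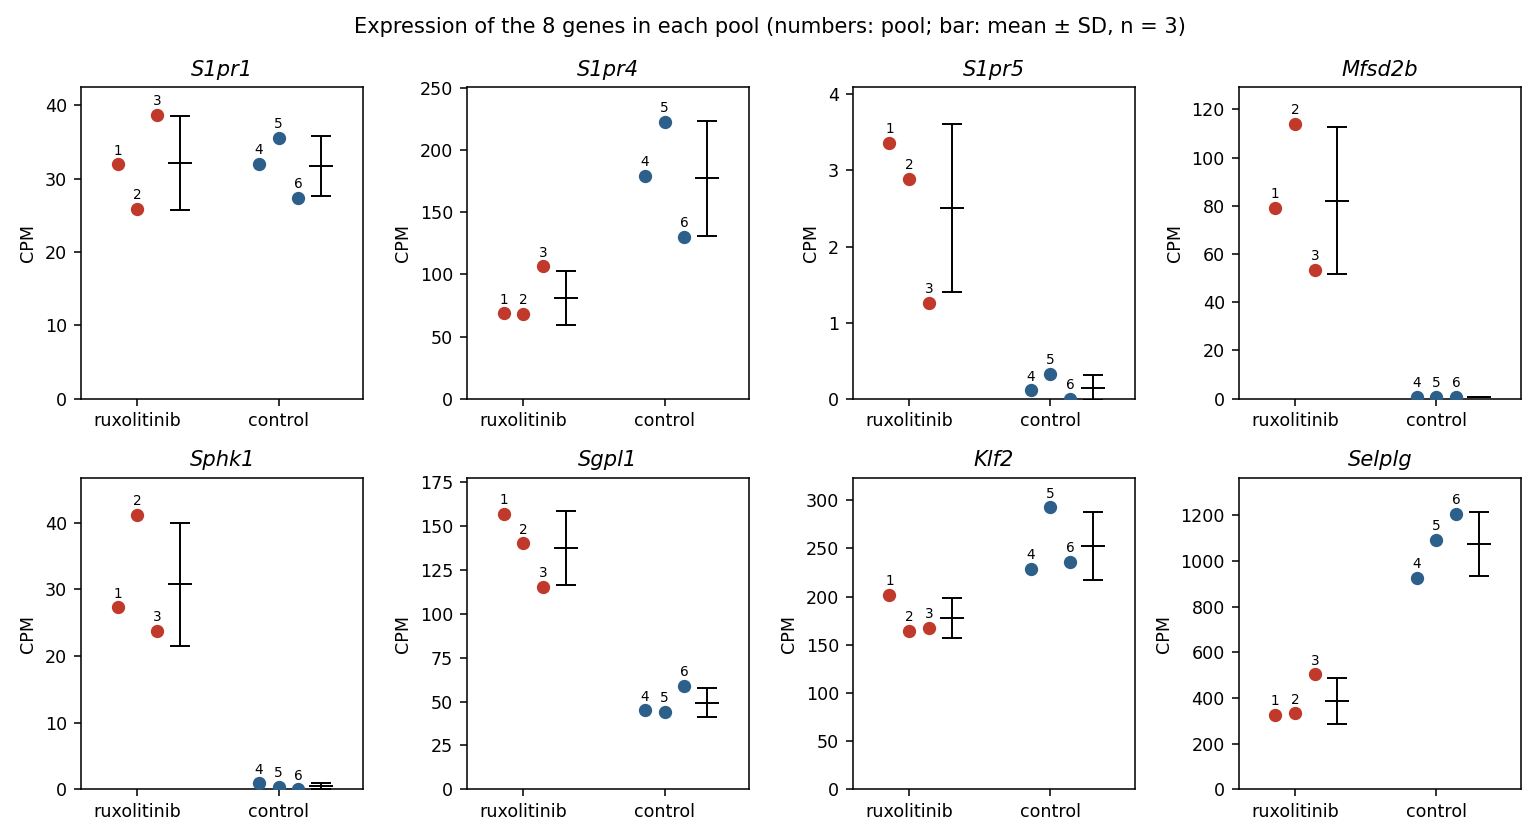
CPM of each of the 8 genes (vertical axis, from 0, a separate scale per panel) in ruxolitinib pools 1 to 3 and control pools 4 to 6, with the mean ± SD of 3 pools beside the points. Mfsd2b and Sphk1 lie near 0 in all control pools, and S1pr1 is the panel in which the groups overlap.

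Mfsd2b, the exporter through which red cells and platelets release S1P, had 79.1, 114 and 53.3 CPM with ruxolitinib, against 0.609, 0.720 and 0.623 CPM in control. These are 1081, 1499 and 844 counts with ruxolitinib and 11, 11 and 10 counts in control. All 3 ruxolitinib pools lay far above all 3 control pools, highest in pool 2 and lowest in pool 3. The means were 82.1 ± 30.4 CPM and 0.651 ± 0.0602 CPM (SD, n = 3 each), a log2 fold change of 6.97 ± 0.38 (SE). Erythroid genes moved with it. Per 1000 CPM of the summed erythroid genes, Mfsd2b had 0.322, 0.573 and 0.426 CPM with ruxolitinib, and 0.320, 0.385 and 0.231 CPM in control, so relative to that sum the groups overlapped. The sum is mostly globin RNA, and relative to single erythroid genes the result can differ. Their log2 fold changes ran from 6.03 for Hbb-bs and 6.23 for Gata1 to 8.61 for Slc4a1 and 8.86 for Alas2, on either side of that of Mfsd2b. The platelet list, the other known source, summed to 54.3, 64.3 and 35.0 CPM with ruxolitinib, and 21.8, 22.4 and 52.3 CPM in control. These overlap through control pool 6, where Pf4 alone had 34.01 CPM, and without that pool both control sums lie below every ruxolitinib sum. In that list Ppbp, Gp9, Tubb1 and Vwf were higher (log2 fold changes of 1.42 to 4.72).

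Sphk1 encodes sphingosine kinase 1, one of the enzymes that phosphorylate sphingosine to S1P. It had 27.3, 41.2 and 23.8 CPM with ruxolitinib, and 0.886, 0.393 and 0 CPM in control. In control these were 16, 6 and 0 counts, so the level there is poorly fixed. The group means were 30.8 ± 9.22 and 0.426 ± 0.444 CPM (SD, n = 3 each) and the log2 fold change was 6.10 ± 0.65, or 7.26 without control pool 4. As with Mfsd2b, pool 2 was the highest ruxolitinib pool and pool 3 the lowest, while the erythroid sum was highest in pool 1 (245654 CPM, against 198840 CPM in pool 2) and lowest in pool 3. Per 1000 CPM of that sum Sphk1 had 0.111, 0.207 and 0.190 CPM with ruxolitinib, and 0.465, 0.210 and 0 CPM in control, and these groups overlap. Its neighbour on chromosome 11, Ube2o, lies 1066 bases beyond its end on the other strand and was higher too (log2 fold change 4.60 ± 0.44, adjusted p = 5.15e-05). Whether counting used strand is not stated, so reads that run past the end of either gene cannot be told apart.

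**Figure D2:**
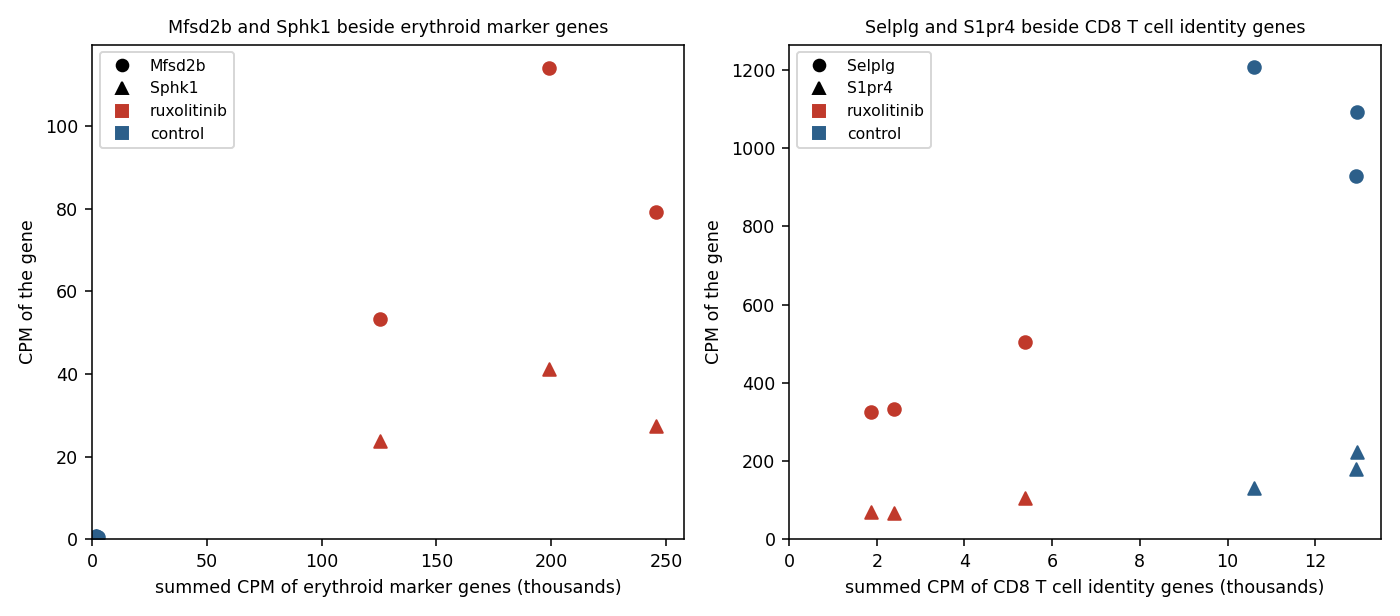
Left, CPM of Mfsd2b (circles) and Sphk1 (triangles) against the summed CPM of 13 erythroid genes. Right, Selplg (circles) and S1pr4 (triangles) against the summed CPM of 17 CD8 T cell identity genes. Each library gives 2 points in a panel, 1 per gene, and on the left the control libraries lie together at the origin.

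Sgpl1, the S1P lyase, which cleaves S1P irreversibly inside cells, had 157, 140.2 and 115 CPM with ruxolitinib, and 45.0, 44.1 and 58.8 CPM in control. Every ruxolitinib pool lay above every control pool, with means of 137 ± 21.0 and 49.3 ± 8.24 CPM (SD, n = 3 each) and a log2 fold change of 1.48 ± 0.21. Unlike Mfsd2b it was well expressed in control, with 674 to 944 counts. Monocyte and macrophage genes moved in the same direction, with sums of 6174 to 9802 CPM against 1019 to 1420 CPM, and per 1000 CPM of those genes Sgpl1 was lower with ruxolitinib (14.3 to 18.7 CPM) than in control (31.7 to 49.2 CPM). The part that any of these cell types has in the levels of the 8 genes was not tested.

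Among the receptors, S1pr4, which blood cells of most lineages carry, was the most abundant per kilobase in every library. It had 68.6, 68.0 and 106 CPM with ruxolitinib, and 179, 223 and 130.3 CPM in control. The groups did not overlap, and the nearest libraries were ruxolitinib pool 3 and control pool 6. Mean levels were 81.0 ± 22.0 and 177 ± 46.3 CPM (SD, n = 3 each), a log2 fold change of -1.13 ± 0.27 that became -0.92 without control pool 5. Ruxolitinib pool 3 also had the highest sum of CD8 T cell identity genes of its group, 5386 CPM against 1876 and 2387 CPM in pools 1 and 2. For each 100 CPM of the geometric mean of those genes S1pr4 had 74.5, 60.9 and 41.2 CPM with ruxolitinib, and 31.8, 39.7 and 30.5 CPM in control, so on that scale every ruxolitinib pool was higher. Most genes are higher on such a scale. With libraries scaled to the identity genes, 9603 of 13480 tested genes passed as higher and 60 as lower, and S1pr4 did not pass.

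S1pr1, the receptor that guides lymphocytes out of lymphoid organs and that endothelial cells also carry, had 31.98, 25.8 and 38.7 CPM with ruxolitinib, and 32.1, 35.6 and 27.4 CPM in control. The groups overlapped fully and their means were 32.2 ± 6.42 and 31.7 ± 4.10 CPM (SD, n = 3 each). The log2 fold change was 0.02 ± 0.22. In the same libraries the T cell identity genes were lower, so for each 100 CPM of their geometric mean S1pr1 had 34.8, 23.1 and 15.0 CPM with ruxolitinib, and 5.68, 6.34 and 6.41 CPM in control. On that scale, on which most tested genes are higher, the groups separated. Pool 3, with most T cell RNA, was the ruxolitinib pool nearest to control. B cells also use S1pr1, and their genes summed to 737 to 997 CPM with ruxolitinib and 140 to 174 CPM in control, where Ms4a1 and Pax5 were at 0 counts in all 3 pools.

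S1pr5, the receptor by which natural killer cells and patrolling monocytes leave the marrow, was the scarcest of the 8 genes per kilobase in both groups by its mean. It had 46, 38 and 20 counts (3.37, 2.89 and 1.26 CPM) with ruxolitinib, and 2, 5 and 0 counts (0.111, 0.327 and 0 CPM) in control. Every ruxolitinib pool lay above every control pool, with pool 3 the lowest of them. The log2 fold change was 4.05 ± 0.81, and 5.24 without control pool 5, which held 5 of the 7 control counts. From the summed counts the ratio was 17.2 (95% exact interval 8.06 to 43.9, counting error only). The natural killer list summed to 95.0 to 215 CPM with ruxolitinib and 263 to 353 CPM in control, and Ncr1, its defining receptor, had 7, 1 and 4 counts with ruxolitinib and 4, 0 and 0 in control. Of 2 genes that mark patrolling monocytes, Nr4a1 averaged 60.3 ± 4.62 CPM with ruxolitinib and 37.3 ± 6.48 CPM in control (SD, n = 3 each) and was higher, with a log2 fold change of 0.69 ± 0.20 (adjusted p = 0.0158 by edgeR). The other, Cx3cr1, averaged 31.1 ± 10.9 CPM with ruxolitinib and 38.6 ± 6.09 CPM in control, and was the 1 monocyte and macrophage gene of 12 that did not pass. Per 1000 CPM of that whole list S1pr5 had 0.359, 0.295 and 0.205 CPM with ruxolitinib, and 0.0780, 0.321 and 0 CPM in control. These overlap through the 5 counts of control pool 5. The groups overlapped likewise per the B cell and neutrophil lists. Per 1000 CPM of the erythroid list S1pr5 had 0.0137, 0.0145 and 0.0101 CPM with ruxolitinib, and 0.0582, 0.175 and 0 CPM in control. There control pools 4 and 5 lay above every ruxolitinib pool, and the overlap came from the 0 counts of pool 6. Per 1000 CPM of the natural killer list S1pr5 had 34.3, 30.4 and 5.88 CPM with ruxolitinib, and 0.376, 1.24 and 0 CPM in control. Every ruxolitinib pool was higher there, and also per the CD8 identity, endothelial, platelet and plasmacytoid dendritic cell lists. Most of the natural killer sum was Eomes and Klrc1, averaging 106 and 26.2 CPM with ruxolitinib and 122 and 145 CPM in control. Of the plasmacytoid sum in control, 209 to 228 CPM, Bst2 alone had 204 to 218 CPM. The ratios to those lists therefore do not show S1pr5 relative to the number of either cell type.

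Set beside each other per kilobase of gene length, the 5 receptor genes summed to 42.4, 39.9 and 60.5 CPM per kb with ruxolitinib, and to 87.8, 107 and 65.4 CPM per kb in control. S1pr4 made up 71.0 ± 3.00% of that sum with ruxolitinib and 85.4 ± 1.77% in control (SD, n = 3 each). The share of S1pr1 was 22.3 ± 2.10% with ruxolitinib and 12.2 ± 1.45% in control, and it was higher in every ruxolitinib pool (21.0% to 24.8%) than in any control pool (10.9% to 13.8%). S1pr5 took 0.836% to 3.17% with ruxolitinib and 0 to 0.122% in control. S1pr2, a receptor that restrains migration, had a log2 fold change of -0.22 ± 0.26 (adjusted p = 0.486) and took 3.34% to 3.74% with ruxolitinib and 2.00% to 2.77% in control. These shares are of one sum, so when one receptor takes less of it the others take more.

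**Figure D3:**
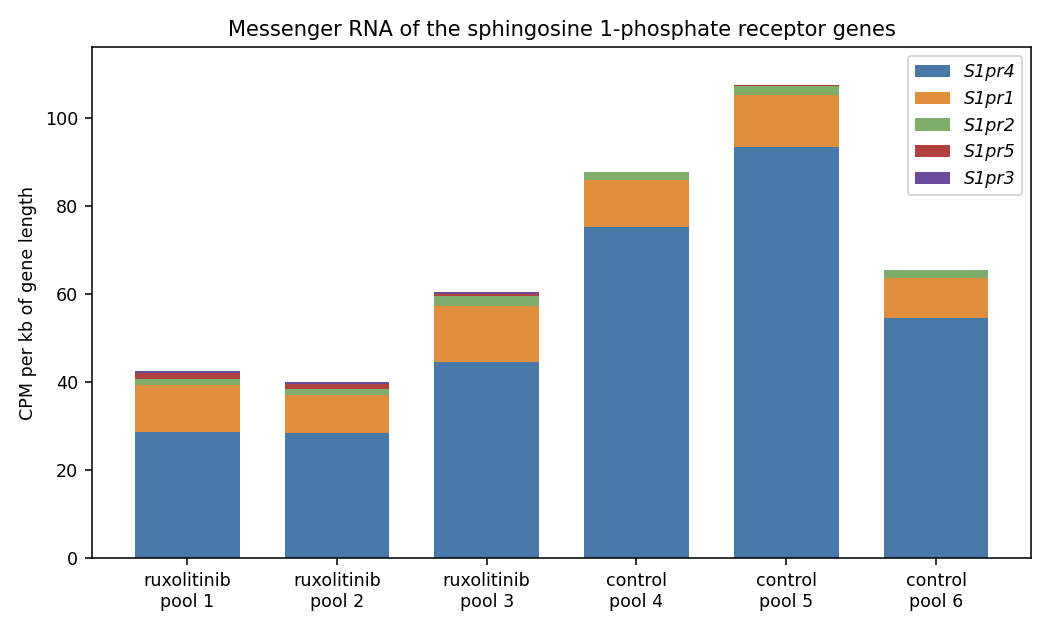
CPM per kb of gene length of the 5 S1P receptor genes, stacked, in each ruxolitinib and control library. S1pr4 is the largest segment everywhere, and the S1pr1 segment has a similar height in all 6 libraries, 8.49 to 12.7 CPM per kb with ruxolitinib and 8.998 to 11.7 in control.

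Klf2, the transcription factor that maintains S1pr1 in resting T cells, had 202, 165 and 167 CPM with ruxolitinib, and 228, 292 and 236 CPM in control. The groups did not overlap, but the log2 fold change of -0.50 ± 0.21 did not pass the threshold. It passed without control pool 6 (-0.56) and with DESeq2 (-0.49). The means were 178 ± 20.6 and 252 ± 35.0 CPM (SD, n = 3 each). Per kilobase, the ratio of S1pr1 to Klf2 was 0.0961, 0.0951 and 0.140 with ruxolitinib, and 0.0851, 0.0738 and 0.0704 in control, higher in each ruxolitinib pool. Per 100 CPM of the identity geometric mean Klf2 had 219, 147 and 64.9 CPM with ruxolitinib, and 40.4, 52.1 and 55.2 CPM in control, also higher in each ruxolitinib pool. Most tested genes are higher on that scale.

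Selplg encodes PSGL-1, the ligand through which leukocytes roll on selectins and, in mouse T cells, also a brake on activation. It had 325, 333 and 503 CPM with ruxolitinib, and 927, 1092 and 1207 CPM in control. The groups lay well apart, and pool 3 was again the ruxolitinib library nearest to control. Their means were 387 ± 101 and 1075 ± 141 CPM (SD, n = 3 each) and the log2 fold change was -1.47 ± 0.26. Per 100 CPM of the geometric mean of the T cell identity genes, Selplg had 353, 298 and 195 CPM with ruxolitinib, and 164, 194 and 282 CPM in control, which overlap.

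When the libraries were scaled to the 17 CD8 T cell identity genes, the median log2 fold change of all tested genes moved to 2.04. Of the 13480 genes tested, 9603 then passed the threshold as higher and 60 as lower. On that scale S1pr4 (0.79 ± 0.57) and Selplg (0.40 ± 0.57) had positive values that did not pass the threshold, so their direction turned, and S1pr1 (1.98 ± 0.59) and Klf2 (1.55 ± 0.58) passed the threshold as higher. Relative to the median of all genes, S1pr4 stood at -1.25 and Selplg at -1.64 under that scaling, and at -1.16 and -1.51 under TMM, edgeR's standard scaling. S1pr1 stood at -0.06 under the identity scaling and -0.01 under TMM. The order of the 8 genes by fold change was the same under both scalings. That order and the similar distances from the median follow from the scaling. It replaces 1 factor per library and so shifts all genes by a similar amount.

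**Figure D4:**
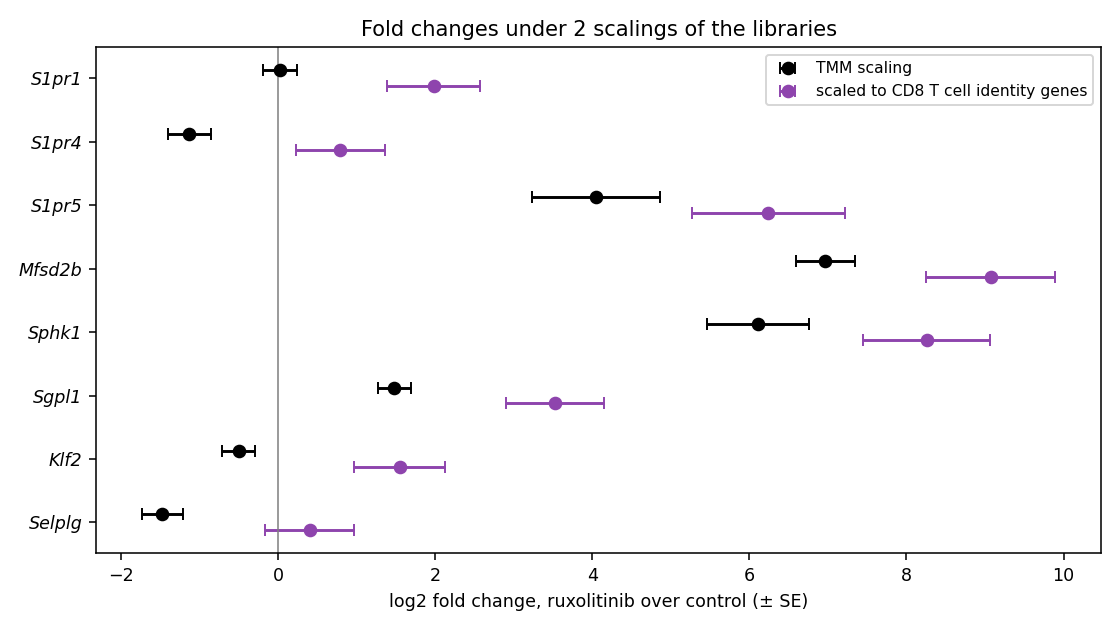
Log2 fold change, ruxolitinib over control, ± SE of each of the 8 genes with libraries scaled by TMM (black) and to the CD8 T cell identity genes (purple). S1pr4 goes from -1.13 to 0.79 and Selplg from -1.47 to 0.40 between the scalings, while Mfsd2b, Sphk1, S1pr5 and Sgpl1 lie right of 0 under both.

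By level per kilobase the order in the ruxolitinib libraries was Klf2 (96.3 ± 11.2 CPM per kb), Selplg (90.6 ± 23.6), S1pr4 (33.9 ± 9.21), Sgpl1 (22.4 ± 3.41), Mfsd2b (16.0 ± 5.91), S1pr1 (10.6 ± 2.11), Sphk1 (6.44 ± 1.93) and S1pr5 (1.00 ± 0.441) (SD, n = 3). Neighbours in that order whose ranges overlapped were Klf2 and Selplg, Sgpl1 and Mfsd2b, Mfsd2b and S1pr1, and S1pr1 and Sphk1. In the control libraries it was Selplg (252 ± 32.95 CPM per kb), Klf2 (137 ± 18.9), S1pr4 (74.4 ± 19.4), S1pr1 (10.4 ± 1.35), Sgpl1 (8.03 ± 1.34), Mfsd2b (0.126 ± 0.0117), Sphk1 (0.0893 ± 0.0930) and S1pr5 (0.0584 ± 0.0665) (SD, n = 3). There the overlapping neighbours were S1pr1 and Sgpl1, Mfsd2b and Sphk1, and Sphk1 and S1pr5. Mfsd2b thus reached the level of S1pr1 in the ruxolitinib libraries and lay far below it in the control libraries.

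The genes sit apart from one another in the genome (mm10, positions as deposited, with the same coordinates in GENCODE M21). Mfsd2b is on chromosome 12 at 4862440 to 4874359, Sphk1 on chromosome 11 at 116530925 to 116536674, Sgpl1 on chromosome 10 at 61098642 to 61147703 and S1pr4 on the same chromosome at 81497747 to 81500132. S1pr1 is on chromosome 3 at 115710433 to 115715072, S1pr5 on chromosome 9 at 21242912 to 21248443, Klf2 on chromosome 8 at 72319033 to 72321656 and Selplg on chromosome 5 at 113818536 to 113832644. Each of the receptor genes S1pr1, S1pr4 and S1pr5 has its whole coding sequence in 1 exon, while the longest Mfsd2b and Sgpl1 transcripts have 14 coding exons each. Sphk1 overlaps an antisense gene, Gm29292, with 5 counts in all ruxolitinib libraries together and 0 in control, while Gm48303, which overlaps S1pr5, and Gm44308, which overlaps Sgpl1, had 0 counts.

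RefSeq promoter windows (GRCm38.p6) were at hand for 6 of the 8 genes, Mfsd2b, Sphk1, Sgpl1, S1pr4, S1pr5 and Klf2. The bases before the start of Mfsd2b and S1pr5, higher with ruxolitinib, and of S1pr4 and Klf2, with lower values, are shown because they differ in make-up as well as in level. They are Mfsd2b at chr12:4874360-4874609 (minus strand), S1pr5 at chr9:21248444-21248693 (minus strand), S1pr4 at chr10:81500138-81500387 (minus strand) and Klf2 at chr8:72318812-72319032 (plus strand), and capitals mark KLF boxes.
Mfsd2b: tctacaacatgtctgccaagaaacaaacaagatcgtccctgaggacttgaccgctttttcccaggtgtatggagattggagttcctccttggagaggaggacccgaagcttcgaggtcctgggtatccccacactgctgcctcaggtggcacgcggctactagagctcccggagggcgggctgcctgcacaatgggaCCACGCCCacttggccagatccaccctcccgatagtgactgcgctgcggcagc
S1pr5: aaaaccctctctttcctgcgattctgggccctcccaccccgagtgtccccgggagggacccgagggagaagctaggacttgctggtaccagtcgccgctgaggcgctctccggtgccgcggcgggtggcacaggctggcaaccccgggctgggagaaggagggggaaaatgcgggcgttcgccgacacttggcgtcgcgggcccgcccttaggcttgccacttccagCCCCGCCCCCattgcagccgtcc
S1pr4: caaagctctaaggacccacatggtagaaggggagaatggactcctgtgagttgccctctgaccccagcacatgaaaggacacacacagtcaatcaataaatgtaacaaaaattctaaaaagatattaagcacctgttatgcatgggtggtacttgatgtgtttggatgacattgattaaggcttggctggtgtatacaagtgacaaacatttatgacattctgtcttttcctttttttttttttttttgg
Klf2: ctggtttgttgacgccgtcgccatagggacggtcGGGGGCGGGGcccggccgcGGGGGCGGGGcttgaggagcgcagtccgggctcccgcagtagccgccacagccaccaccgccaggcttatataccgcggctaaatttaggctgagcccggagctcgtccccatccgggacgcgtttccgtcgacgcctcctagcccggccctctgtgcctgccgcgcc
Among windows of 250 bases before a start, S1pr4 had no CpG, Mfsd2b 12, S1pr5 22, Sgpl1 31 and Klf2 29, with a median of 6 over all 32851 windows. The motifs searched on both strands were the KLF box CCNCNCCC, held by 45.9% of all windows, the GATA core GATAA (22.6%), the STAT site TTCNNNGAA (7.02%) and the FOXO site GTAAACA (3.17%). Mfsd2b held 1 KLF box, S1pr5 and Sgpl1 2 overlapping ones each, Klf2 4 in 2 overlapping pairs and S1pr4 none of the motifs. No window of these 5 genes held a GATA, STAT or FOXO match. Sphk1 has 5 RefSeq windows, some overlapping, and held KLF boxes in all of them, a STAT match in 2 and a GATA match in another 2.

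To show which other genes had profiles like these, each gene's log2 CPM over the 6 libraries was centred on its own mean and compared with those of 11950 other protein-coding genes by the root mean square difference. For Mfsd2b the closest were Cacna1g (0.0978), Dusp8 (0.211) and Ace (0.228), the only 3 within 0.25. Cacna1g and Ace had 0 CPM in all 3 control pools. Their log2 fold changes were 10.8 and 10.9, against 7.27 for Dusp8 and 6.97 for Mfsd2b. The prior count of 2 in these log2 CPM draws levels near 0 together, so small distances there do not mean equal fold changes. For Sphk1 they were Samd11 (0.245), Myo1d (0.311) and Smim1 (0.316). For S1pr5, whose counts are few, none lay within 0.25, and the closest were B3gnt3 (0.264), Etv1 (0.267) and Liph (0.271). The other 5 had many genes within 0.25, from 291 for S1pr4 to 858 for Klf2. Closest to S1pr4 were Myo1g (0.0306), Def6 (0.0736) and the interferon gamma receptor gene Ifngr1 (0.0764), and closest to Selplg were Traf5 (0.0668), Zfp287 (0.0668) and Ppif (0.0712). Closest to S1pr1 were Rad54l2 (0.0619), Dock2 (0.0637) and Pramef8 (0.0751), to Sgpl1 Abhd17c (0.0662), Synj1 (0.0735) and Tnrc6b (0.0760), and to Klf2 Mosmo (0.0504), Egln3 (0.0740) and Arhgap1 (0.0761).

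The rest of the pathway was followed in 4 lists of 73 related genes, 68 of them tested. Of the 68, 19 rose and 19 fell, 27.9% each way, close to the shares of all tested genes given above. What differed from gene to gene is given by role.

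In the list of S1P production and breakdown, 6 of 20 tested genes rose and 5 fell, with a median log2 fold change of -0.02. The lipid phosphatase genes Plpp3 and Plpp1, whose enzymes dephosphorylate S1P and related lipids at the cell surface, rose most. Plpp3 had 11.7, 11.2 and 8.60 CPM with ruxolitinib, and 0.166, 0.523 and 0.436 CPM in control (log2 fold change 4.80 ± 0.45, adjusted p = 4.17e-05). Its control levels rest on 3, 8 and 7 counts. Plpp1 averaged 18.9 ± 6.07 CPM with ruxolitinib and 0.837 ± 0.235 CPM in control (SD, n = 3 each), a log2 fold change of 4.47 ± 0.37 (adjusted p = 2.59e-05 by edgeR). The ceramidase genes Asah1 (log2 fold change 1.99 ± 0.24, adjusted p = 0.000184) and Acer3 (1.77 ± 0.25, adjusted p = 0.000364), whose enzymes free sphingosine from ceramide, rose with Asah2 and the second kinase gene Sphk2. Sphk2 had a log2 fold change of 0.55 ± 0.20 (adjusted p = 0.0392), and per kilobase Sphk1 stood at 0.509 to 0.677 of its level with ruxolitinib and at 0 to 0.0239 in control. The falls were in Sgpp1, an S1P phosphatase gene, and in the ceramide synthesis genes Sptlc1, Kdsr, Cers4 and Cers5. They numbered 3 without ruxolitinib pool 1 and 3 without pool 2. Degs1, the desaturase gene of ceramide synthesis and the most abundant of the list per kilobase, had a log2 fold change of 0.15 ± 0.19 (adjusted p = 0.527).

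In the list of S1P export, other receptors and receptor signalling, 4 of 15 tested genes rose and 3 fell, with a median of 0.01. Spns2, the endothelial S1P exporter, had 57, 47 and 38 counts with ruxolitinib, and 7, 0 and 0 in control. Its ratio from summed counts was 23.5 (95% exact interval 11.1 to 59.5, counting error only), and its log2 fold change of 4.53 ± 0.89 (adjusted p = 0.00216 by edgeR) became 8.64 without control pool 4. S1pr3, a receptor of endothelial and stromal cells, had 21, 26 and 31 counts with ruxolitinib and 0, 1 and 0 in control, a ratio of 90.4 (interval 15.7 to 3614, adjusted p = 0.000342 by edgeR). The endothelial genes Cdh5 and Kdr moved with both, at 5.06 ± 0.621 and 3.56 ± 1.09 CPM with ruxolitinib and 0.446 ± 0.403 and 0.0969 ± 0.0865 CPM in control (SD, n = 3 each), and the endothelial list summed to 68.8 to 86.4 CPM against 42.1 to 45.8 CPM, with Emcn and Tek at 0 in all control pools. Eng, Tie1 and Cldn5 of that list were higher too, while Pecam1 (log2 fold change -0.33 ± 0.20, adjusted p = 0.180) and Egfl7 (-0.40 ± 0.38, adjusted p = 0.385) did not pass. Their part was not tested. Arrb1, an arrestin gene, rose to 339.9 ± 109 CPM with ruxolitinib, against 11.5 ± 1.96 CPM in control (SD, n = 3 each), a log2 fold change of 4.89 ± 0.32 (adjusted p = 1.63e-05). The G protein gene Gna12 also rose (2.39 ± 0.23, adjusted p = 4.99e-05). Arhgef1, Grk2, which encodes a kinase that desensitises S1PR1, and Gnai3 fell, and 0 genes of the list fell without ruxolitinib pool 1, ruxolitinib pool 2, control pool 4 or control pool 5. Rac2, the most abundant per kilobase, had a log2 fold change of -0.71 ± 0.30 (adjusted p = 0.0702), and passed with DESeq2, without the low-count filter and without ruxolitinib pool 3 or control pool 6. Scaled to the CD8 identity genes its direction turned, and it passed as higher (1.26).

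**Figure D5:**
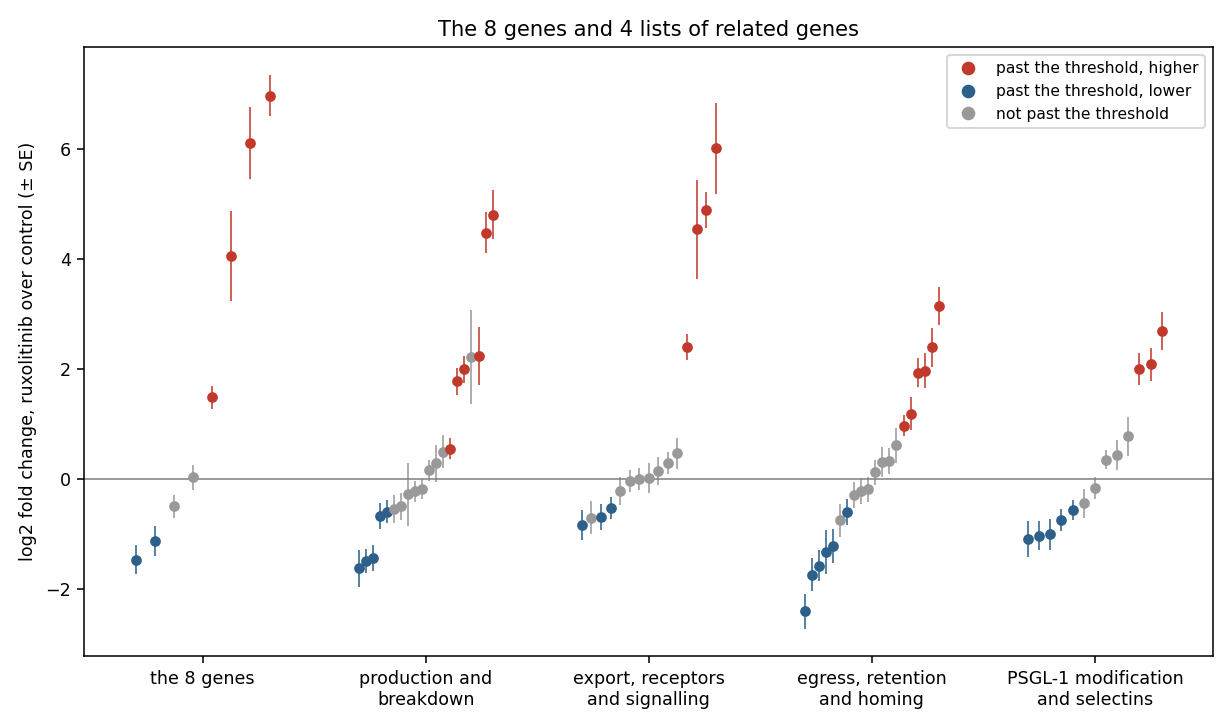
Log2 fold change, ruxolitinib over control, ± SE (vertical axis) of the 8 genes and of the tested genes of the 4 related lists. Colours mark genes past the edgeR threshold, higher or lower, and each list holds both, 19 higher and 19 lower over the 4 lists.

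In the list of egress, retention and homing genes, 6 of 20 rose and 6 fell, with a median of -0.04. Without ruxolitinib pool 1 the number that fell was 3. Among those that rose were the homing receptor gene Ccr7 (13.7 ± 1.10 CPM with ruxolitinib and 2.60 ± 1.06 CPM in control, log2 fold change 2.39 ± 0.35, adjusted p = 0.000459), the interleukin 7 receptor gene Il7r, the marrow retention receptor gene Cxcr4, and Klf3 (3.14 ± 0.34, adjusted p = 0.000103) and Klf4 (1.93 ± 0.27, adjusted p = 0.00035), relatives of Klf2. B cells also express Ccr7, erythroid cells Klf3 and monocytes Klf4. Coro1a, an actin regulator that T cells need to leave the thymus, had 836, 996 and 1521 CPM with ruxolitinib, and 5029, 6232 and 6586 CPM in control. It fell by 2.41 ± 0.32 on the log2 scale (adjusted p = 0.000261 by edgeR). Cd69 had 22.0, 18.7 and 27.9 CPM with ruxolitinib and 29.1, 34.1 and 41.2 CPM in control, a log2 fold change of -0.61 ± 0.23 just past the threshold (adjusted p = 0.0497). The others that fell were the integrin genes Itgal and Itgb7 and the chemokine receptor genes Ccr2 and Cxcr3. Foxo1, which encodes a transcription factor upstream of Klf2, had a log2 fold change of 0.32 ± 0.24 (adjusted p = 0.283).

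PSGL-1 binds selectins only after sugars and sulfate have been added to it. In the list of those enzymes, 3 of 13 tested genes rose and 5 fell, with a median of -0.17. The fucosyltransferase gene Fut4 rose to 13.6 ± 4.19 CPM with ruxolitinib, against 2.10 ± 0.459 CPM in control (SD, n = 3 each, log2 fold change 2.69 ± 0.34, adjusted p = 0.000233 by edgeR). Gcnt1 (2.08 ± 0.31, adjusted p = 0.000458), whose enzyme builds the branched O-glycan of PSGL-1, and the sialyltransferase gene St3gal1 (2.00 ± 0.29, adjusted p = 0.000406) rose as well. The genes that fell were Fut7, the fucosyltransferase gene most tied to selectin ligands in T cells (-1.09 ± 0.33, adjusted p = 0.0186), St3gal6, the sulfotransferase gene Tpst2, the sulfate donor transporter gene Slc35b2 and C1galt1c1 (-1.04 ± 0.26, adjusted p = 0.0081), the chaperone gene of the enzyme that starts the O-glycan core. The falls numbered 2 without ruxolitinib pool 1 and 2 without pool 2, and 5 genes rose without control pool 4. Tpst2, the most abundant per kilobase, had 61.0, 68.2 and 109 CPM with ruxolitinib and 188, 178 and 115 CPM in control (-1.01 ± 0.28, adjusted p = 0.0129), and did not pass without ruxolitinib pool 1 (-0.81) or pool 2 (-0.92). The selectin genes Selp and Sele, which platelets and endothelial cells carry, were too scarce to test. They had 25 and 19 counts over the 3 ruxolitinib libraries and 0 in control, which is at least 9.65-fold and at least 7.34-fold higher when control is set to 3 counts in all.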

How the data were processed

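RNA was sequenced from 6 libraries, 3 ruxolitinib and 3 control pools, prepared, per the labels, with NEBNext Ultra II. The submitters' processing notes name HISAT2 2.0.5 and mm10. The sources used here do not say how reads were counted, whether strand was used, or with which annotation. The deposited table holds raw counts per gene, not normalised, and a gene length in bases of unstated origin. From it, filterByExpr, TMM factors and glmQLFit (robust) with glmQLFTest of edgeR 4.0.16 in R 4.3.3 were run on all genes with group as the only term and Benjamini-Hochberg adjustment. CPM is the count over the library's total in the tested genes times its TMM factor. The SE is the fold change over the square root of F. Profiles were compared on edgeR's log2 CPM with a prior count of 2. Intervals and bounds allow for counting error alone, because reads without molecular identifiers may be copies. Levels below 1 CPM rest on few reads, as for Sphk1 in control with at most 16 counts a library.

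The 8 genes and all lists were chosen with earlier results of these data known. From each of the 4 pathway lists, up to 4 called genes with the smallest p and the most abundant gene per kilobase were to be named, with the 3 nearest profiles of each of the 8 genes and the 2 most abundant genes of each marker list; other list genes in the text were named after their values were seen. Alternatives were RLE and upper-quartile factors, haemoglobin genes left out, scaling to the CD8 identity genes, no filter, 1 CPM in 3 libraries, DESeq2 1.42.0, limma-voom (limma 3.58.1) and leaving out each pool. The test was tried on simulated counts. Some listed genes enter the counts but are not reported here by name.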

Additional observations from a re-analysis of the deposited data

How the results depend on the processing

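Each result was recomputed under 8 other settings and without each pool. Scaling to the CD8 identity genes changed most counts, and under it 9603 of all 13480 tested genes were higher and 60 lower. Under it the 8 genes had 0 past the threshold as lower, production and breakdown had 17 genes higher and 0 lower, export, receptors and signalling 14 and 0, egress and homing 14 and 0, and PSGL-1 modification 10 and 0. The log2 fold changes of S1pr4 (0.79), Selplg (0.40), Klf2 (1.55), Rac2 (1.26), C1galt1c1 (0.92) and Tpst2 (0.88) changed sign there. This follows from how that scaling is built, since it moves the median of all genes to 2.04. Without a filter 6 PSGL-1 modification genes were higher. That setting also lets Selp and Sele, which the filter leaves out, into the test, and how far they account for the change was not tested. The other counts stayed within 1.5 times under the remaining settings.

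Leaving out 1 pool kept 4 of the 8 genes higher and 2 to 3 lower. Across those fits 5 to 6 production and breakdown genes were higher and 3 to 6 lower, 4 export and signalling genes were higher and 0 to 3 lower, 6 to 7 egress and homing genes were higher and 3 to 6 lower, and 3 to 5 PSGL-1 modification genes were higher and 2 to 5 lower. No paired analysis was possible because the pools are numbered 1 to 3 and 4 to 6, so the groups share no number. Among the 8 genes and the pathway genes named and tested, depth limits S1pr5, Sphk1, S1pr3, Spns2 and Plpp3. Their control libraries held 22 counts or fewer in all.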
